A study of Mus musculus with 4 samples.

Results

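The constitutive proteasome subunits are described here from their transcripts in 4 libraries of sorted mouse liver macrophages. Members were chosen by name alone: every gene name made of Psma, Psmb, Psmc or Psmd and a number, without Psmb8, Psmb9 and Psmb10, the subunits of the immunoproteasome. This gave 36 of the 23337 gene names in the files. Of these, 16 belong by name to the core particle (8 Psma, 8 Psmb) and 20 to the regulatory particle (6 Psmc, 14 Psmd).

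The proteasome is the protease complex that degrades proteins marked with ubiquitin in the cytosol and nucleus. Its barrel-shaped core particle is built from outer rings of Psma (alpha) subunits and inner rings of Psmb (beta) subunits, of which Psmb5, Psmb6 and Psmb7 carry the proteolytic sites. The regulatory particle caps the core: its Psmc subunits are ATPases that unfold substrates and feed them into the barrel, and most Psmd subunits form the scaffold, bind ubiquitin or remove it. In antigen-presenting cells such as macrophages the products also supply peptides to MHC class I molecules. Several members are not parts of the standard particle: Psma8 is an alpha subunit of the testis, Psmb11 a beta subunit of thymic epithelium, and Psmd5, Psmd9 and Psmd10 are chaperones that help assemble the regulatory particle. This leaves 14 standard core subunits and 17 standard regulatory subunits.

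All cells came from reporter mice of both sexes, 6 to 8 weeks old, that carry Lyz2-Cre and a Rosa YFP allele. YFP (yellow fluorescent protein) marks cells that have expressed Cre from the lysozyme gene Lyz2, or whose precursors have; YFP- cells of the same reporter mice form the other group. Kupffer cells, which are liver-resident macrophages, were sorted by YFP into 2 YFP+ and 2 YFP- libraries of total RNA. In each group the title of 1 library starts with M and that of the other with FM. No label explains these letters or tells whether libraries came from separate or pooled animals. The p-values thus measure only the spread between these libraries, taken in the main fit from genes of like level, and this spread may be technical.

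The libraries differed in ways that touch every value below. Between 7386 and 12829 genes reached 1 TPM (a length-corrected share of the library's transcripts, scaled to the same total in each library), fewest in YFP+ FM, and the 100 most abundant genes took 29.7% to 66.1% of all TPM, most in YFP+ FM. Depth in reads is unknown; mean coverage per base at 1 FPKM ranged from 2.59 to 9.19. All 12 Kupffer cell markers looked up were above 0 in every library, with a summed level of 33380 to 34790 TPM in YFP+ and 6221 to 12850 TPM in YFP- libraries. Of these, 9 were higher in both YFP+ libraries. Spic, Cd163 and Slc40a1 overlapped, each with YFP+ M above YFP- M and YFP+ FM below YFP- FM. Microglia are macrophages of the brain, and their 10 markers were also above 0 in every library, with a summed level of 121 to 1263 TPM in YFP+ and 19140 to 21470 TPM in YFP- libraries; Tmem119 stood at 92.9 and 2.92 TPM in YFP+ M and FM against 1278 and 2501 TPM in YFP- M and FM. Levels this high of microglia markers go against the labelled tissue of the YFP- libraries. The 6 oligodendrocyte markers summed to 27.1 to 106 TPM in YFP+ and 739 to 846 TPM in YFP- libraries, with Mog at 0 in all but YFP- M. The summed level in YFP+ against YFP- libraries was 158 to 313 against 487 to 633 TPM for 7 markers of sinusoidal endothelium, 314 to 679 against 1337 to 2087 TPM for 7 of hepatocytes, 91.9 to 149 against 364 to 1088 TPM for 5 of T and NK cells, 75.7 to 513 against 571 to 589 TPM for 4 of B cells, and 1394 to 6731 against 1605 to 3374 TPM for 5 of neutrophils. Among the hepatocyte markers Ttr stood at 55.5 and 51.9 against 1053 and 830 TPM in YFP+ against YFP- M and FM, and made up most of the YFP- M sum. Apoa1 was higher in both YFP+ libraries, Serpina1a and Fgb were lower in both, and Alb, Ahsg and Cyp2e1 overlapped. The 8 pan-macrophage markers summed to 42180 to 58720 TPM in YFP+ and 23300 to 26830 TPM in YFP- libraries, of which C1qa, C1qb, C1qc and Cd68 were higher in both YFP+ libraries, Csf1r, Fcgr1 and Mertk lower in both, and Emr1 overlapped. The part of these differences in the members' values was not tested. Since these are bulk samples, fewer cells of a type and less RNA per cell cannot be told apart.

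TPM is a share of a library, and the 12251 tested genes had a median log2 fold change of -1.73 (YFP+ minus YFP-). Fold changes are differences of log2(TPM + 1) throughout, which understates the change of low genes. Under quantile normalization, median-ratio scaling and cyclic loess, which bring the libraries to a common scale, that median was -0.03, -0.08 and -0.01. Members are therefore read against the median of all tested genes. Adjusted p-values are from limma with Benjamini-Hochberg adjustment over all 12251 genes, and a gene passed at an adjusted p below 0.05.

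Every standard subunit stood above 5 TPM in every library. The 14 standard core subunits had a median level of 132 and 89.3 TPM in YFP+ M and FM and of 226 and 118 TPM in YFP- M and FM. The 17 standard regulatory subunits had a median level of 59.6, 19.8, 111 and 96.2 TPM in the same order of libraries. The YFP+ FM library was thus the lowest for both particles, and the regulatory median lay below the core median in each library. Single genes crossed: in YFP- FM the regulatory Psmd2, at 272 TPM, exceeded every core subunit, and the summed core level was 0.937 times the summed regulatory level. As ranks within a library, which no rescaling of that library moves, the median core subunit stood at percentile 94.2 and 94.5 of the tested genes in YFP+ M and FM and at 95.3 and 87.9 in YFP- M and FM; the median regulatory subunit stood at 88.9, 85.7, 90.6 and 85.1. By rank, the core of the YFP- FM library was the one that stood apart, below the other 3.

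**Figure D1:**
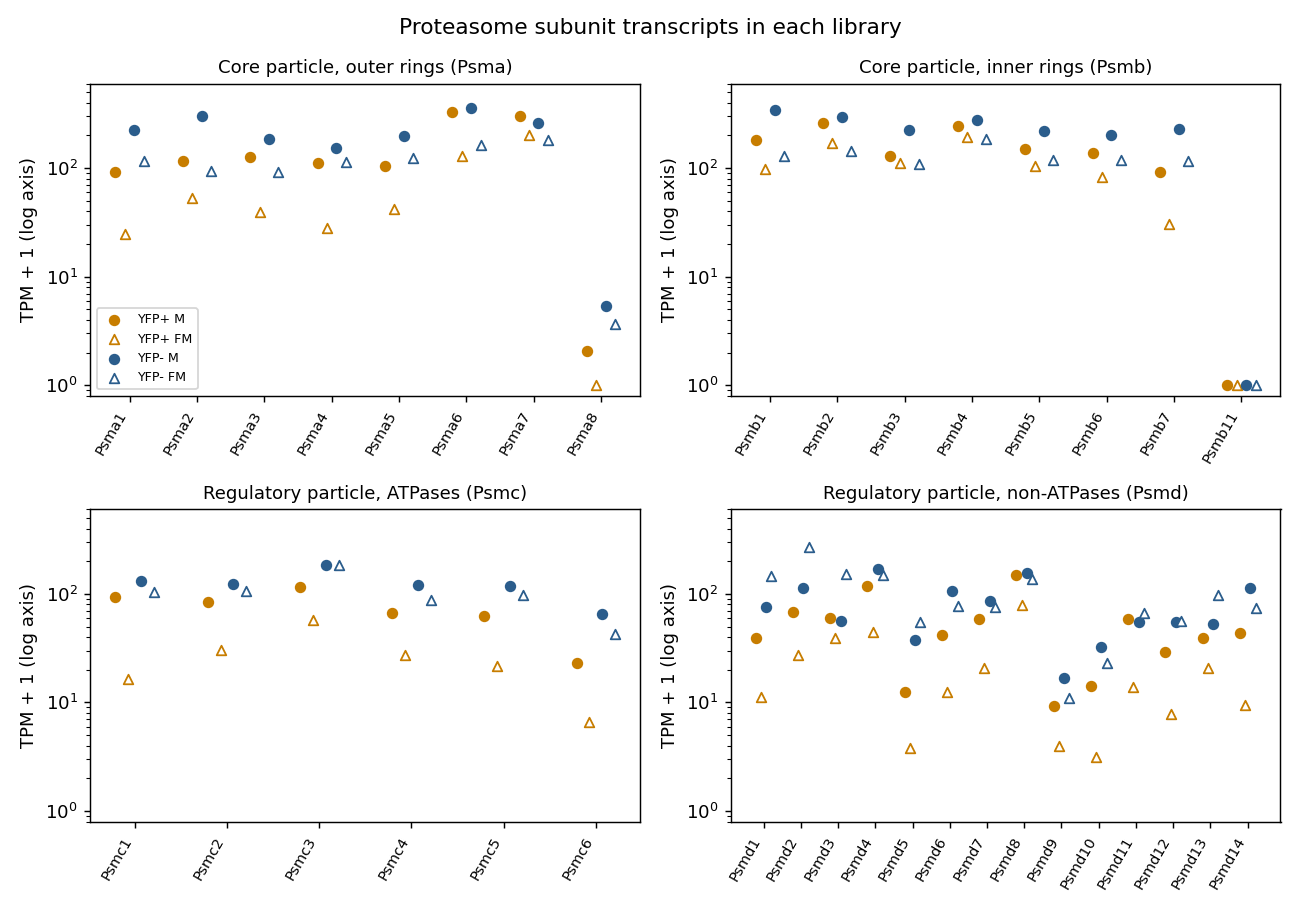
Level of all 36 members in each of the 4 libraries, as TPM + 1 on a log axis, 1 panel per family; orange marks YFP+ and blue YFP- libraries, filled circles the M and open triangles the FM titles. The open orange triangles (YFP+ FM) are the lowest marks for most members, while Psma8 and Psmb11 lie near the bottom of the axis in every library.

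Of the 35 members tested, 0 were called higher and 2 lower in YFP+ libraries, Psma8 and Psmd5. At an unadjusted p below 0.05 the counts were 0 and 5, where 6506 of the 12251 tested genes passed in either direction. Among all tested genes 0.522% were called higher and 39.5% lower, a larger share than the members' in the lower direction. Without YFP+ M the core median log2 fold change was -1.10 and the regulatory one -2.21, against -2.27 for all tested genes. Psmb11 did not reach 1 TPM in 2 libraries and was not tested: it was listed at 0 in both YFP- libraries and at 0.000913 and 0.00199 TPM in YFP+ M and FM. At an estimated fold change at or above 0 stood 2 of 35 members, against 6.53% of all tested genes. Both YFP+ libraries lay below both YFP- libraries for 22 of the 35 tested members, against 79.7% of all tested genes, and above them for 0, against 2.5%.

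The core and the regulatory particle differed in how far they lay from 0. The tested core members had a median log2 fold change of -0.66, which is 1.07 above the median of all tested genes, and the regulatory members one of -1.43, which is 0.30 above it. Of 15 core members, 14 lay above the median of all tested genes, and of 20 regulatory members 12 did. Both YFP+ libraries lay below both YFP- libraries for 5 core and 17 regulatory members, against 79.7% of all tested genes. The regulatory count was near that share. The regulatory median lay 0.78 below the core median. In the highest of 5 bins of mean log2(TPM + 1), 14 core members had a median of -0.60 and 15 regulatory members one of -1.25. All genes of that bin had a median of -1.03, so the regulatory median lay below that of genes of high level. The part of level in the difference between the particles was not tested. On rescaled values the core median was 0.41, 1.63 and 0.16 and the regulatory median -0.06, 0.78 and -0.13 under quantile normalization, median-ratio scaling and loess, so the sign of the core, and under median-ratio scaling that of the regulatory particle, turned, while the regulatory median stayed below the core median under each. By limma with adjustment, 0 of the 35 members were called in either direction under these 3 scalings. In the same order, 1.67%, 5.9% and 0.327% of all genes were called lower and 1.21%, 5.62% and 0.531% higher. At an unadjusted p below 0.05, 8 members were higher under median-ratio scaling and 0 members passed otherwise. Of the 12251 tested genes, 2515, 3956 and 2402 passed that unadjusted level in either direction under the 3 scalings.

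**Figure D2:**
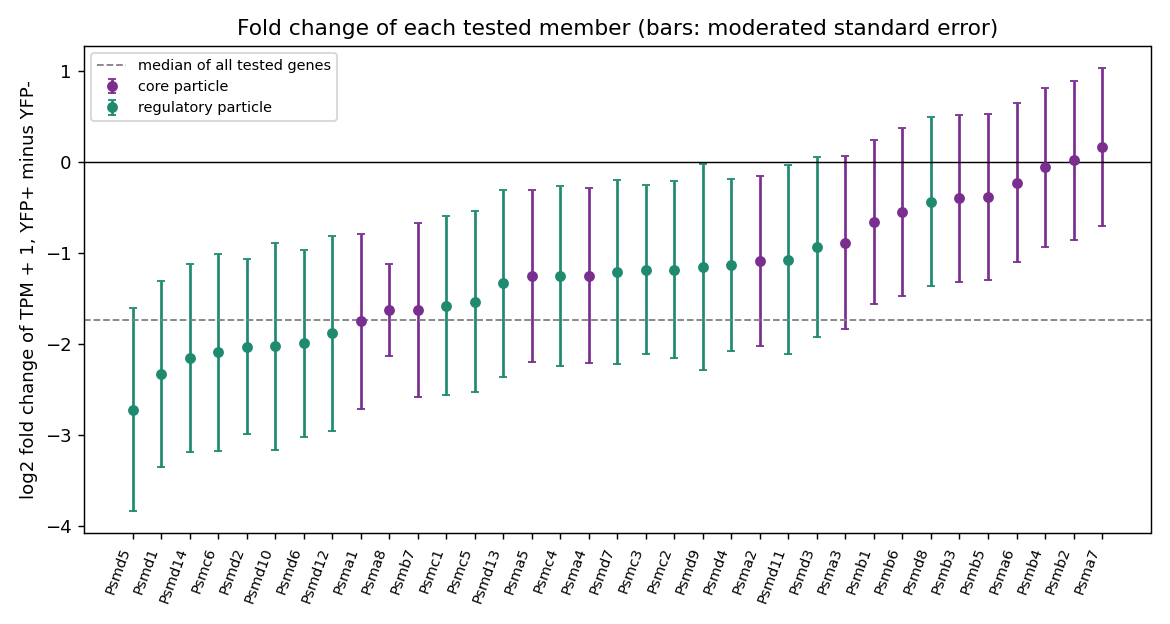
Log2 fold change of TPM + 1 (YFP+ minus YFP-) of each of the 35 tested members, ordered by size, with bars for the moderated standard error of limma; purple marks core and green regulatory members, and the dashed line is the median of all tested genes (-1.73). The right end of the order is mostly core and the left end mostly regulatory, and most bars overlap those of their neighbours.

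Among the Psma subunits of the outer rings, fold changes ran from just above 0 down to the median of all genes. Psma7, an alpha subunit, stood at 301 and 201 TPM in YFP+ M and FM against 262 and 182 TPM in YFP- M and FM (chromosome 2, 180036376 to 180042402 in GRCm38). Its log2 fold change was 0.17 (SE 0.87, adjusted p = 0.870), the highest of all members, with the YFP+ library above the YFP- library in both title starts and the groups overlapping. Psma6, the most abundant core member on average, stood at 329 and 127 TPM in YFP+ against 354 and 162 TPM in YFP- libraries (log2 fold change -0.23, adjusted p = 0.828). In both genes the 2 title starts differed more than the 2 YFP groups, with the M libraries higher.

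Psma1 had the lowest fold change of the family. It stood at 91.3 and 23.5 TPM in YFP+ M and FM against 222 and 114 TPM in YFP- M and FM (-1.75, SE 0.96, adjusted p = 0.120; chromosome 7, 114264550 to 114276116). Its groups did not overlap, and its distance from the median of all tested genes was -0.02. Psma4 and Psma5 had fold changes of -1.25 each, Psma2 of -1.09 and Psma3 of -0.88, none of which passed.

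Psma8, the testis subunit, was low throughout: its YFP- libraries stood at 4.35 (M) and 2.66 TPM (FM), YFP+ M stood at 1.06 TPM, and YFP+ FM was listed at 0. It was called lower (-1.63, SE 0.51, adjusted p = 0.00835), with a fold change close to the median of all genes. Under quantile normalization the value was -0.25 (adjusted p = 0.712), under median-ratio scaling -0.76 (0.217) and under loess -0.07 (0.936), and in a fit blocked by title start it was -1.63 (0.0512). Leaving out YFP- M (-1.35, adjusted p = 0.413), YFP+ FM (-1.11, 0.209) or YFP- FM (-1.90, 0.680) also ended the call.

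The Psmb subunits of the inner rings had the smallest fold changes of the 4 families, with a median of -0.40 over 7 tested members and 0 calls. Psmb5, the chymotrypsin-like catalytic subunit, stood at 148 and 104 TPM in YFP+ M and FM against 221 and 118 TPM in YFP- M and FM (-0.38, SE 0.92, adjusted p = 0.724; chromosome 14, 54614120 to 54617995). Psmb6, the caspase-like subunit, stood at 136 and 81.2 against 202 and 117 TPM (-0.54, SE 0.93, adjusted p = 0.613; chromosome 11, 70525357 to 70527858). For both, YFP+ was the lower library of each title start, while YFP+ M lay above YFP- FM. Psmb7, the trypsin-like subunit, differed more, at 90.5 and 29.5 TPM in YFP+ against 226 and 115 TPM in YFP- libraries (-1.62, SE 0.96, adjusted p = 0.146; chromosome 2, 38588046 to 38643906). It was the 1 tested Psmb member whose YFP+ and YFP- values did not overlap. Exons of Psmb7 share 405 bases with the opposite-strand gene Nek6, and no source at hand gives the strandedness of the libraries, so reads of the 2 genes cannot be told apart there. The same holds for opposite-strand exon overlaps of Psma4 (114 bases, with AY074887), Psma5 (60, 1700010K24Rik), Psmc3 (97, Slc39a13), Psmd13 (152, Sirt3) and Psmd3 (17, Gm12356), and for 301 bases that Psmd1 shares with Gm21972 on its own strand.

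Of the structural Psmb subunits, Psmb2 and Psmb4 lay closest to 0. Psmb2 stood at 260 and 168 TPM in YFP+ M and FM against 297 and 142 TPM in YFP- M and FM (0.02, SE 0.88, adjusted p = 0.984), and Psmb4 at 242 and 192 against 274 and 183 TPM (-0.05, SE 0.87, adjusted p = 0.958). Psmb3 stood at 128 and 110.5 against 225 and 109 TPM (-0.40, adjusted p = 0.712). In all 3, YFP+ was the lower library between the M titles and the higher between the FM titles. Psmb1 had a fold change of -0.66 (adjusted p = 0.527).

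The ATPase ring, Psmc1 to Psmc6, was the most uniform family, with fold changes from -2.09 to -1.18 (SD 0.35 over 6 genes, against 0.65 over 14 Psmd, 0.54 over 7 Psmb and 0.66 over 8 Psma genes). Both YFP+ libraries lay below both YFP- libraries for each of the 6, as for 79.7% of all tested genes, and 0 passed. Psmc2 was closest to 0, at 82.9 and 29.7 TPM in YFP+ M and FM against 123 and 106 TPM in YFP- M and FM (-1.18, SE 0.98, adjusted p = 0.296). Psmc3, the most abundant regulatory member on average, stood at 114 and 56.4 against 184 and 184 TPM (-1.18, SE 0.93, adjusted p = 0.272; chromosome 2, 91054016 to 91059438). Its YFP- libraries were nearly equal while its YFP+ libraries were apart. Psmc6 was the lowest ATPase, at 22.3 and 5.62 against 63.9 and 42.1 TPM (-2.09, SE 1.08, adjusted p = 0.0997; chromosome 14, 45329824 to 45349071).

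The non-ATPase Psmd subunits had a median fold change of -1.61, against -1.73 for all genes, and spread widely. Psmd8, a lid subunit, was nearest to 0, at 149 and 77.7 TPM in YFP+ M and FM against 155 and 138 TPM in YFP- M and FM (-0.43, SE 0.93, adjusted p = 0.689). The large scaffold subunits of the base lay at the other end: Psmd1 stood at 38.3 and 10.1 against 74.6 and 145 TPM (-2.33, SE 1.03, adjusted p = 0.0552) and Psmd2 at 67.7 and 26.1 against 112 and 272 TPM (-2.03, SE 0.96, adjusted p = 0.0741). In both scaffolds the YFP- FM library was the highest of the 4. Among the 17 standard regulatory subunits that library was the highest for 7 and YFP- M for 10. In the core YFP- M was the highest for 13 of 14 standard subunits. Psmd14, the deubiquitinase of the lid, stood at 42.8 and 8.48 against 111 and 72.7 TPM (-2.16, SE 1.03, adjusted p = 0.0758). Psmd4, a ubiquitin receptor, stood at 116 and 44.0 against 169 and 149 TPM (-1.13, adjusted p = 0.299).

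The lid subunits Psmd3 and Psmd11 changed sign between title starts. Psmd3 stood at 59.6 TPM in YFP+ M against 55.5 in YFP- M, and at 38.6 in YFP+ FM against 153 in YFP- FM. Psmd11 stood at 58.1 against 53.5 TPM between the M titles and at 12.9 against 65.5 TPM between the FM titles. Their fold changes of -0.93 and -1.07 thus came from the FM libraries alone and did not pass (adjusted p = 0.414 and 0.371). The base subunits (Psmc1 to Psmc6, Psmd1, Psmd2 and Psmd4) had a median of -1.53 and the 8 lid subunits one of -1.27, with 9 of 9 and 5 of 8 having both YFP+ libraries below both YFP- libraries, against 79.7% of all tested genes.

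The assembly chaperones among the members had a lower mean level over the 4 libraries than each standard subunit, although in YFP- FM Psmd5 exceeded Psmc6. Psmd5 stood at 11.5 and 2.80 TPM in YFP+ M and FM against 36.3 and 54.2 TPM in YFP- M and FM (chromosome 2, 34852089 to 34870962). It had the lowest fold change of all members and was called lower (-2.72, SE 1.12, adjusted p = 0.0411), at a distance of -0.99 from the median of all genes. The call ended with a pseudocount of 0.1 (adjusted p = 0.0589), a 5 TPM filter (0.0557), FPKM (0.0553), a block for the title start (0.190) and under quantile, median-ratio and loess scaling (-0.81, -0.62 and -0.71, adjusted p = 0.362, 0.417 and 0.397), and without YFP+ FM (0.191), YFP- M (0.388) or YFP- FM (0.680). Psmd10, also known as gankyrin, stood at 13.3 and 2.16 against 31.2 and 22.3 TPM (-2.03, adjusted p = 0.128). Psmd9, the least abundant regulatory member, stood at 8.34 and 2.96 against 15.7 and 9.94 TPM (-1.15, adjusted p = 0.378).

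The difference between particles was uneven between title starts. Between the M libraries the median difference was -0.57 for the core and -0.78 for the regulatory members, against -1.01 for all tested genes. Between the FM libraries it was -0.52 for the core and -2.24 for the regulatory members, against -2.48 for all tested genes. The near-equal core medians combine 2 families: for M and FM titles in turn, the Psma median was -0.73 and -1.40 and the Psmb median -0.57 and -0.18. The Psma and the regulatory medians, like that of all genes, thus lay further below 0 between the FM libraries, and the Psmb median closer to it. Single members went the other way, among them Psma2 at -1.36 (M) and -0.82 (FM) and Psmb7 at -1.31 and -1.93. The median TPM of standard core subunits was 2.21 times that of standard regulatory subunits in YFP+ M, 4.51 times in YFP+ FM, 2.03 times in YFP- M and 1.22 times in YFP- FM, so the M libraries of the 2 groups were alike and the FM libraries were the extremes. Leaving out YFP- FM, the gap between the regulatory and the core median shrank from -0.78 to -0.12, and leaving out YFP- M it grew to -1.39.

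**Figure D3:**
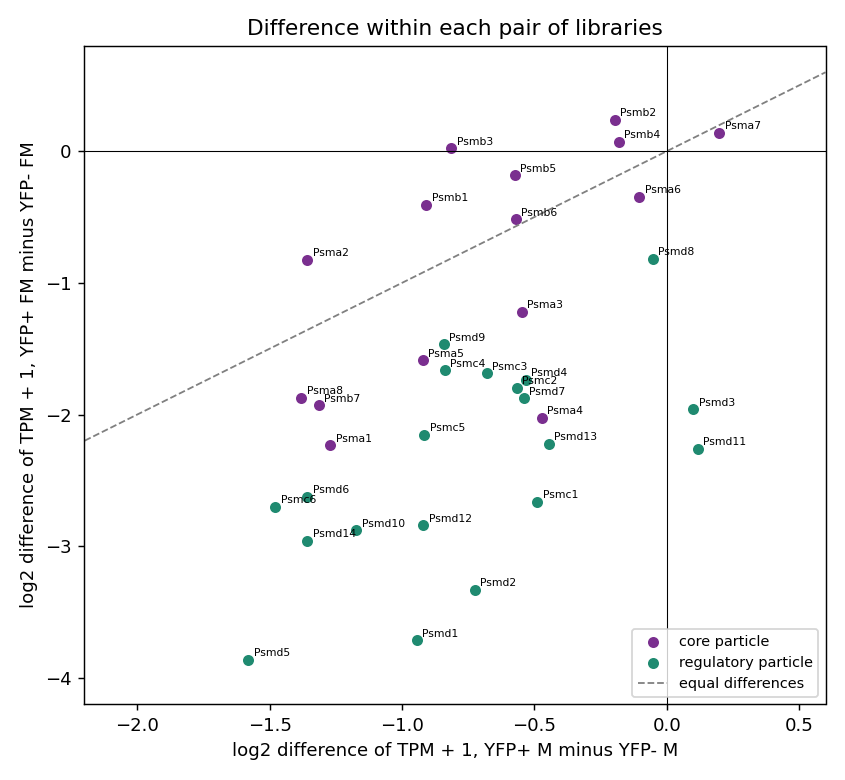
Log2 difference of TPM + 1 between the YFP+ and the YFP- library with M titles (horizontal axis) and with FM titles (vertical axis) for the 35 tested members; purple marks core and green regulatory members, and the dashed line marks equal differences. All regulatory members lie below the dashed line, while core members lie on both sides of it.

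Within each particle the subunits, which are needed in equal numbers in the finished complex, were least even in YFP+ FM. The highest of the 14 standard core subunits exceeded the lowest 3.64-fold in YFP+ M, 8.52-fold in YFP+ FM, 2.33-fold in YFP- M and 2.02-fold in YFP- FM. For the 17 standard regulatory subunits the same ratio was 6.70, 13.8, 3.54 and 6.46. The core was thus most even in the YFP- libraries. The SD of log2 TPM among core subunits was 0.64 and 1.08 in YFP+ M and FM and 0.35 and 0.31 in YFP- M and FM. Among regulatory subunits it was 0.74 and 1.07 against 0.61 and 0.68. The groups did not overlap for either particle, and the spread among other genes was not set beside it.

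Transcript length moved with these values. Standard core subunits have shorter transcripts (median 1162 bases) than standard regulatory subunits (1636), and all tested genes have a median of 2846. Among all tested genes the median fold change was -1.04 in the shortest of 5 bins of transcript length, each with nearly the same number of genes, and -2.07 in the longest. Across the 35 tested members fold change and log2 length had Pearson's r = -0.582 (Spearman's rho = -0.469), and across 12131 tested genes r = -0.338. Within the core r was -0.427 and within the regulatory particle -0.405. With mean log2(TPM + 1) in place of length, r was 0.65 (rho = 0.77) over the members and 0.272 over all tested genes. Length and level were themselves related over the members (rho = -0.587). Genes of 1 set of libraries are not independent replicates. Within the shortest bin, which held 11 core and 7 regulatory members, the core median was -0.40 and the regulatory median -1.53, against -1.04 for all genes there. In the next bin, with 2 core and 8 regulatory members, they were -1.14 and -1.27, against -1.61. The part of transcript length in the difference between the particles was not tested.

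**Figure D4:**
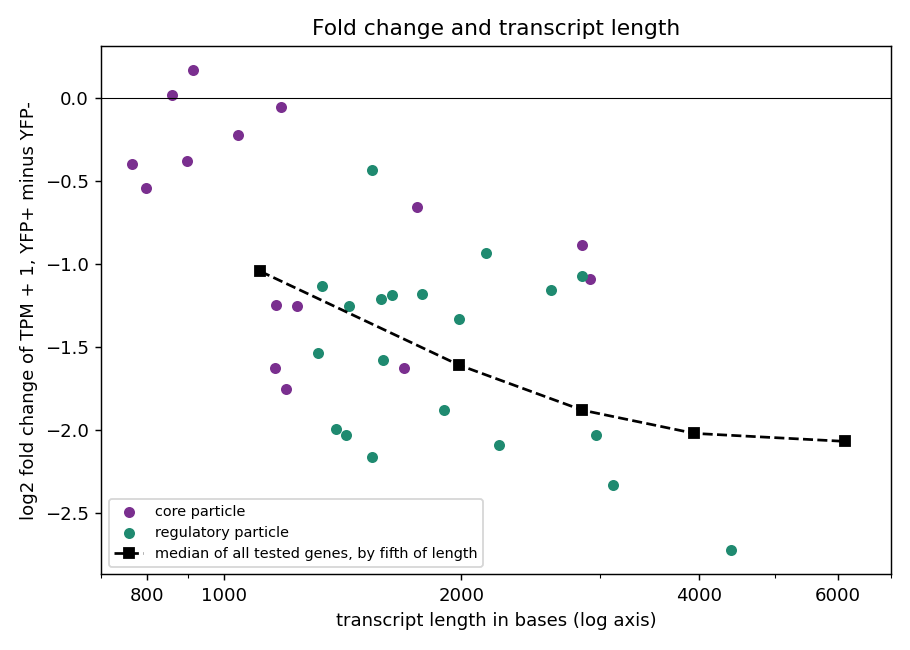
Log2 fold change of TPM + 1 (YFP+ minus YFP-) against transcript length in bases (log axis) for the 35 tested members; purple marks core and green regulatory members, and the black squares give the median of all tested genes in each of the 5 bins of length. The squares descend from -1.04 to -2.07 as length grows, and the highest core members are among the shortest transcripts.

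Subunits of the immunoproteasome replace the catalytic Psmb subunits in cells exposed to interferon and in many immune cells. Their fold changes were above 0 as measured and under each of the 3 scalings. Psmb8 stood at 380.5 and 375 TPM in YFP+ M and FM against 390.5 and 292 TPM in YFP- M and FM, Psmb9 at 230.1 and 263 against 199.9 and 127 TPM, and Psmb10 at 308 and 356 against 195 and 154.5 TPM. Fold changes of 0.16, 0.62 and 0.93 did not pass (adjusted p = 0.871, 0.542 and 0.354). Under median-ratio scaling Psmb9 and Psmb10 were called higher (2.91, adjusted p = 0.0321, and 3.22, adjusted p = 0.0230), as were 5.62% of all tested genes. Under quantile normalization they were not called (adjusted p = 0.246 and 0.180).

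A ratio of 2 genes within a library is not moved by a single scale factor for that library, though quantile normalization and loess shift genes by their level. Psmb9 takes the place of Psmb6 at the caspase-like site, and Psmb9 over Psmb6 was 1.70 and 3.24 in YFP+ M and FM against 0.99 and 1.09 in YFP- M and FM. Psmb10 over Psmb7 was 3.40 and 12.1 against 0.862 and 1.34, and Psmb8 over Psmb5 was 2.57 and 3.60 against 1.77 and 2.47. In each of the 3 pairs both YFP+ libraries lay above both YFP- libraries, by little for Psmb8 over Psmb5. For that pair the order of the fold changes, 0.16 for Psmb8 and -0.38 for Psmb5 as measured, turned under quantile normalization (0.57 and 0.66) and loess (0.36 and 0.40). The 3 immunoproteasome subunits summed to 2.46 and 4.63 times the 3 constitutive ones in YFP+ and to 1.21 and 1.64 times in YFP- libraries, a mean log2 difference of 1.26. With 2 libraries in each group the smallest two-sided p of an exact permutation test is 0.333, so that test cannot reach 0.05 here, and which cells of a library made which subunit is not known from bulk RNA.

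**Figure D5:**
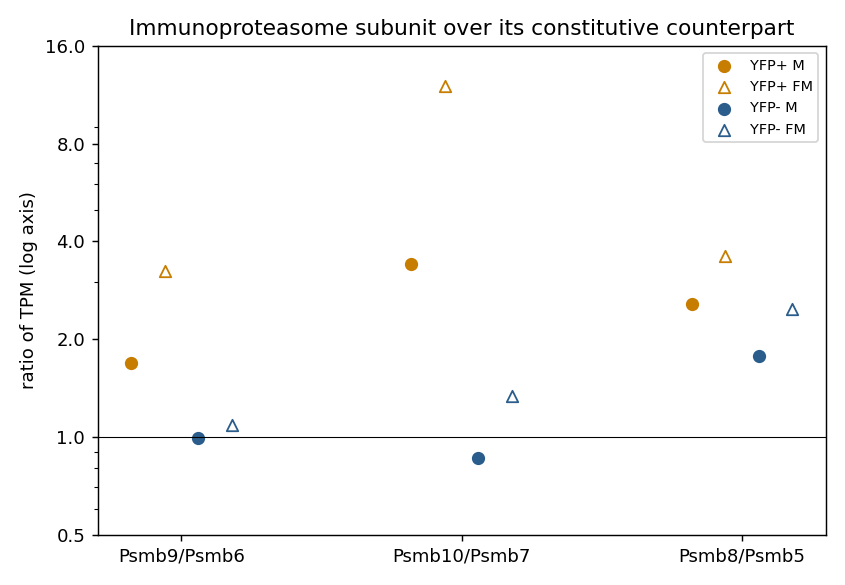
Ratio of TPM of each immunoproteasome subunit to the constitutive catalytic subunit it replaces, on a log axis, in each of the 4 libraries; orange marks YFP+ and blue YFP- libraries, filled circles the M and open triangles the FM titles. In every pair the orange marks lie above the blue ones, from 1.70 to 12.1 in YFP+ and from 0.862 to 2.47 in YFP- libraries.

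The core can also carry other caps. Psme1 and Psme2, which form the PA28 activator that interferon induces, stood at 775 and 660.4 against 609.7 and 298 TPM and at 312 and 271 against 254.5 and 207 TPM (0.75, adjusted p = 0.410, and 0.34, adjusted p = 0.736). Both YFP+ libraries lay above both YFP- libraries in each, as for 2.5% of all tested genes. Under median-ratio scaling Psme2 was called higher (2.63, adjusted p = 0.0494), as were 5.62% of all tested genes. Psme3, the nuclear PA28 gamma, had a fold change of -1.79 and the inhibitor Psmf1 one of -1.37, neither of which passed. Psme4, the large activator PA200, was called lower, at 4.74 and 0.429 against 22.3 and 23.6 TPM (-3.06, SE 1.12, adjusted p = 0.0232), and was not called under quantile normalization (-1.13, adjusted p = 0.235) or the other scalings. Its transcript of 6491 bases is longer than that of any member.

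None of 5 tested assembly chaperones outside the members passed. Pomp, a maturation factor of the core, stood at 185 and 116 TPM in YFP+ M and FM against 309 and 180 TPM in YFP- M and FM (-0.68, adjusted p = 0.507), a fold change near the core median. Psmg1, Psmg2 and Psmg3 had fold changes of -1.49, -1.72 and -1.30, and Psmg4, the shortest of them, 0.11. Of 7 other regulatory particle subunits and bound proteins, 1 was called lower, against 39.5% of all tested genes. This was AI314180 (Ecm29, which holds core and cap together), at -2.75 (SE 1.14, adjusted p = 0.0432), and it was not called under any of the 3 scalings. The subunits Adrm1, a ubiquitin receptor, and Shfm1 had fold changes of -0.14 and 0.28, above those of all named regulatory members. Under median-ratio scaling Adrm1 was called higher (2.13, adjusted p = 0.0484), as were 5.62% of all tested genes. The deubiquitinases Usp14 (-2.17, adjusted p = 0.0824) and Uchl5 (-1.65, adjusted p = 0.213) did not pass.

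Of 16 genes for ubiquitin, its activating enzymes and the shuttles that bring substrates to the proteasome, 0 were called higher and 4 lower, against 39.5% lower of all tested genes. The 3 of largest change were Nploc4 (-2.78, adjusted p = 0.0404) and Ufd1l (-2.70, adjusted p = 0.0451), partners of the unfolding ATPase Vcp, and the shuttle Ddi2 (-2.69, adjusted p = 0.0478). Of 8 transcription and import factors of proteasome genes, 3 were called lower, a share near that of all tested genes: Ngly1 (-2.99, adjusted p = 0.0288), which processes the factor Nfe2l1, Akirin2 (-2.87, adjusted p = 0.0323), which brings proteasomes into the nucleus, and Nfyb (-2.41, adjusted p = 0.0358), a subunit of the CCAAT-binding factor NF-Y. None of these 7 genes was called under quantile normalization, median-ratio scaling or loess. Nfe2l1, the factor that raises proteasome gene expression when the complex is inhibited, stood at 16 and 7.64 TPM in YFP+ against 2.80 and 76.7 TPM in YFP- libraries (-0.50, adjusted p = 0.704), so its YFP- libraries lay on either side of the YFP+ libraries.

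Other large complexes give a measure of what is usual here. Of all tested genes, 0.522% were called higher and 39.5% lower. The chaperonin TRiC had 0 genes called higher and 2 lower of 8, with a median fold change of -2.09. Mitochondrial ribosomal proteins had 0 and 2 of 76, with a median of -1.03. Cytosolic ribosomal proteins, whose transcripts are short (median 878 bases), had 2 called higher and 1 lower of 81, with a median of 0.70. The core particle, at -0.66, lay between the 2 kinds of ribosome, and the regulatory particle, at -1.43, between the mitochondrial ribosome and TRiC. These medians are descriptions, and their differences were not tested.

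Promoter windows, 250 bases before to 50 after the gene start, were on hand in RefSeq (GRCm38.p6) for 29 members. The antioxidant response element core (TGACNNNGC), which Nfe2l1 and Nfe2l2 bind, was found on either strand for 5 of the 29 members (17.2%), against 13.99% of all 27025 genes with a window. CCAAT, which NF-Y binds, was found for 41.4% of members and 41.1% of all genes, and the core of ETS family sites (CCGGAA) for 51.7% of members and 16.7% of all genes. By particle the ETS core was found for 11 of 17 regulatory members (64.7%) and 4 of 12 core members (33.3%). CCAAT was split the other way, with 5 of 17 regulatory (29.4%) and 7 of 12 core members (58.3%). The antioxidant response element core was found for 3 of 17 and 2 of 12. Among regulatory members the median fold change was -1.58 for the 11 with and -1.71 for the 6 without the ETS core, and among tested core members -0.66 for 4 and -0.54 for 7, a smaller gap than that between the particles in each case.

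The members with the antioxidant response element core were Psmb5, Psmb6, Psmc6, Psmd9 and Psmd12. The windows of all of them are shown because they are the members in which the motif was found, in both particles. Each reads 5′ to 3′ along the gene's strand, with matches to TGACNNNGC, CCAAT and CCGGAA on either strand in capitals; no matches overlap. The Psmb5 window is chr14:54617946-54618245 on the minus strand, that of Psmb6 chr11:70525107-70525406, that of Psmc6 chr14:45329574-45329873, that of Psmd9 chr5:123227940-123228239 and that of Psmd12 chr11:107479278-107479577, the last 4 on the plus strand.
Psmb5: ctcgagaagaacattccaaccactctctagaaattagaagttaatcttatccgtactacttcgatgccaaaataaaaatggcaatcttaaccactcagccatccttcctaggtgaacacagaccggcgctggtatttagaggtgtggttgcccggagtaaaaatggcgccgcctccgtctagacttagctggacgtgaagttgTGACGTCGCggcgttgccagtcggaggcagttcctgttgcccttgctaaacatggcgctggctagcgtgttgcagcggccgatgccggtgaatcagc
Psmb6: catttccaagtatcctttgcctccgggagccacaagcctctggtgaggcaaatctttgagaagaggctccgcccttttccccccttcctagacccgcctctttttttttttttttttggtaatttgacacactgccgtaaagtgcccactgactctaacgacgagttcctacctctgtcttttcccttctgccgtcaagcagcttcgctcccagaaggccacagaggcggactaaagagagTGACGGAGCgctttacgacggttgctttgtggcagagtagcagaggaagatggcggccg
Psmc6: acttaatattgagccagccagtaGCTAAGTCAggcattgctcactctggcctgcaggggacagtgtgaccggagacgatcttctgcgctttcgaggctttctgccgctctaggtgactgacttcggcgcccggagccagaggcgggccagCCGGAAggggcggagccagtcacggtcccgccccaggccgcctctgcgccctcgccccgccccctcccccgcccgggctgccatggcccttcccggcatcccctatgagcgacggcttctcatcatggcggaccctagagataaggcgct
Psmd9: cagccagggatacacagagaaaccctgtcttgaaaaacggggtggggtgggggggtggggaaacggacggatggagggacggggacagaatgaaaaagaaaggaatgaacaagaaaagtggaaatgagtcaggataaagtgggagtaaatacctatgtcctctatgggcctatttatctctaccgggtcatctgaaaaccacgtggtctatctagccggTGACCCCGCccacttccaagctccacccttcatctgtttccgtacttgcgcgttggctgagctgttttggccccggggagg
Psmd12: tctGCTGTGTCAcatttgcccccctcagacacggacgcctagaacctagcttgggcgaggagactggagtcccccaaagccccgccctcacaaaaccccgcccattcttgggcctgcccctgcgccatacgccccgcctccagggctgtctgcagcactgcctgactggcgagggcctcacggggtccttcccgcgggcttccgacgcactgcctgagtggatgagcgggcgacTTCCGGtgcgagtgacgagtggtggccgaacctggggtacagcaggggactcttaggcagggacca

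The match, TGACGTCGC in Psmb5, TGACGGAGC in Psmb6 and TGACCCCGC in Psmd9, lies on the gene's strand in these genes and begins 47, 9 and 31 bases before the gene start. In Psmc6 and Psmd12 it lies on the opposite strand and begins 227 and 247 bases before the start. Psmc6 and Psmd12 each hold 1 ETS core besides, 100 and 16 bases before the start, and the other windows shown hold none. Psmd12, a lid subunit, stood at 28.04 and 6.83 TPM in YFP+ M and FM against 53.9 and 55.1 TPM in YFP- M and FM (-1.88, SE 1.07, adjusted p = 0.133). A match of letters is a description of the window and does not show that a factor binds there.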

How the data were processed

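RNA-seq of 4 libraries of sorted liver macrophages (2 YFP+, 2 YFP-) was analysed from the per-gene tables. Reads were aligned with HISAT to GRCm38 (mm10), per the submitters' processing notes; neither the version of HISAT nor the abundance program, the kit or the strandedness is named in the sources at hand. The deposited tables give, per gene, TPM, FPKM and read coverage (a mean signal per base), as the authors computed them, per the file headers; no counts were used, so no count model was fitted. Depth enters only through coverage: the less covered a library, the less precise its low values.

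Rows of 1 gene name were summed. TPM was tested on log2(TPM + 1) with limma 3.58.1 under R 4.3.3, with moderated variances that follow the mean level, over genes at 1 TPM or more in at least 2 libraries, with Benjamini-Hochberg adjustment over all of them and a threshold of 0.05. How often the main fit calls a gene in error in these libraries was not tested. Prior degrees of freedom, the weight of the trend against a gene's own spread, were infinite in the main fit. Each gene's variance there was the trend value at its level, and its own spread did not enter. Under quantile normalization, median-ratio scaling and loess they were 6.87, 16.2 and 5.56, so a gene's own spread entered. Ratios, medians, lengths (GENCODE M21) and motif matches were computed with Python 3.11.15. Values in every library are given, by rule, for the catalytic members, the highest and lowest fold change of each family, the most and least abundant member of each particle, members called higher, and members of opposite sign between title starts; Psma8 and Psmd5 fall under it or were called. Psmd1, Psmd2, Psmd4, Psmd10, Psmd12 and Psmd14 were chosen after their values were seen. The pathway and marker lists are those the report counts. Values of some listed genes are not reported here. The members and lists were chosen with earlier results of these data known. Alternatives were another pseudocount, other filters, 3 scalings, FPKM, the title start as a block, and each library left out. Of the replicate numbers, taken in accession order, none pairs libraries.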

Additional observations from a re-analysis of the deposited data

Results flagged for a closer look

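In 5 members the YFP+ library lay on opposite sides of the YFP- library in the 2 title starts, which is what set them apart here; with 1 library of each kind, the difference between title starts was not tested. The log2 difference of TPM + 1 (YFP+ minus YFP-) of the structural core subunits was -0.20 (M) and 0.24 (FM) for Psmb2, -0.81 and 0.021 for Psmb3, and -0.18 and 0.07 for Psmb4. That of the lid subunits was 0.10 (M) and -1.96 (FM) for Psmd3 and 0.12 and -2.26 for Psmd11. The core subunits were thus relatively higher in YFP+ between the FM libraries and the lid subunits between the M libraries. These signs are read against 0. The median difference of all tested genes was -1.01 (M) and -2.48 (FM), and each of the 5 members lay above it in both title starts. YFP+ was the higher library for 1713 of the 12251 tested genes between the M libraries and for 696 between the FM libraries.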

How the results depend on the processing

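The main fit called 4834 genes lower and 64 higher. Separate fits called 205 lower and 148 higher under quantile normalization, 723 and 689 under median-ratio scaling, and 40 lower under loess. A pseudocount of 0.1 gave 3078 lower, a 5 TPM filter 2902 and FPKM 115 higher. Leaving out 1 library gave 24 to 8280 lower and 12 to 71 higher, where the lone library of a group is assumed to vary like the other group's. Of the 2 members called lower, 1 was left with a pseudocount of 0.1 or FPKM, and 0 with the 5 TPM filter or any of the 3 scalings; leaving out 1 library gave 0 to 13. The core median was 0.41, 1.63 and 0.16 and the regulatory median -0.055, 0.78 and -0.13 under quantile, median-ratio and loess scaling, and the core median ran from -1.35 to -0.15 without 1 library. The regulatory median stayed below the core median under each alternative run (-1.39 to -0.12), and the log2 difference of 1.26 in the immunoproteasome to constitutive ratio ran from 0.80 to 1.72 without 1 library. With the title start as a replicate block 1726 genes were called lower, 23 higher and 0 members lower; deviations of libraries with the same title start had a correlation of -0.01; whether they share animals or a day is not known. Fold changes of these members turned positive under quantile normalization: Psmb5 0.66, Psmb6 0.55, Psmc2 0.17, Psmd8 0.66, Psma6 0.62, Psmd9 0.86, Psmb3 0.67, Psmb4 0.73, Psmd3 0.42 and Psmd11 0.59. Under median-ratio scaling they were Psmb5 1.90, Psmb6 1.74, Psmb7 0.65, Psma1 0.51, Psmc2 1.08, Psmc6 0.083, Psmd8 1.85, Psma6 2.06, Psmc3 1.10, Psmd9 0.84, Psmb3 1.89, Psmb4 2.23, Psmd3 1.34 and Psmd11 1.16. Under loess they were Psmb5 0.40, Psmb6 0.30, Psmc2 0.017, Psmd8 0.42, Psma6 0.26, Psmd9 1.06, Psmb3 0.41, Psmb4 0.44, Psmd3 0.35 and Psmd11 0.51, and with FPKM Psmb5 0.16, Psmd8 0.11, Psma6 0.32, Psmb3 0.14 and Psmb4 0.49. Without 1 library the sign turned for Psma7 (-0.12 to 0.46), Psmb2 (-0.51 to 0.55), Psmb5 (-0.82 to 0.068), Psma6 (-0.91 to 0.46), Psmb3 (-0.92 to 0.12), Psmb4 (-0.35 to 0.24) and Psmd8 (-0.90 to 0.033). Psma8 was not tested under the 5 TPM filter. The cause of these changes was not tested beyond the construction of each alternative. The 3 scalings centre the libraries and came with finite prior degrees of freedom, and leaving out a library leaves fewer samples.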
